A study of Homo sapiens with 12 samples.

Results

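The E protein genes TCF3, TCF4 and TCF12 and the ID genes ID1, ID2 and ID3 were followed in TMD8 and OCI-Ly7, 2 human lines of diffuse large B cell lymphoma, after an inducible guide RNA against PRMT5, a protein arginine methyltransferase, was switched on. All 6 genes were found by symbol in both expression tables, out of 25369 rows per table, and all 6 had a mean FPKM (fragments scaled to transcript length and to the fragments of the library) of at least 1 in each line, the minimum for testing. The genes were chosen by name as a family, which was put forward with earlier results of these same libraries known, so the values are a description, and the adjusted p-values show where each gene stood among all genes tested in its line and are no independent evidence about the family.

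TMD8 is of the activated B cell-like type and OCI-Ly7 of the germinal centre B cell-like type. Both carried the doxycycline-inducible guide against PRMT5, day 0 cells included, and treated cells were harvested after 3 or 6 days in 20 ng/ml doxycycline; every combination of line and day was sequenced as 2 libraries, 12 in all. Days are those of the titles and the design text; the labels' treatment protocol gives different ones. Doxycycline and time in culture went together with the guide in every treated library, and these cannot be told apart here; a line given doxycycline without that guide was not analysed here. Whether the cells were pools or single clones, and whether the 2 libraries of a day came from separate cultures, the labels do not say, so p-values measure the spread between these libraries, which may be technical.

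E proteins are basic helix-loop-helix transcription factors that pair with one another, or with other helix-loop-helix factors, and bind the E-box (CANNTG) through their basic region. TCF3 encodes E12 and E47, TCF4 encodes E2-2, and TCF12 encodes HEB. They drive B cell commitment and immunoglobulin gene rearrangement and remain active in germinal centre B cells. ID proteins have the helix-loop-helix but no basic region, so that an E protein bound to an ID protein does not bind DNA. In lymphocytes the balance of the 2 groups is known to set E protein activity, and in Burkitt lymphoma mutations of TCF3 and ID3 shift it towards TCF3. TCF4 lies on a chromosome arm that is often gained in activated B cell-like lymphoma.

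The start regions of TCF3 and ID1 are shown because these were the 2 of 6 members whose day 6 response passed a test of the difference between the lines on FPKM as given, in both cases higher in OCI-Ly7, as 18.4% of all tested genes did. Each is the 250 bases before the start of transcription in RefSeq (build GRCh38.p14), written 5′ to 3′ on the gene's own strand, at chr19:1652616-1652865 (minus strand) for TCF3 and chr20:31605039-31605288 (plus strand) for ID1. Capitals mark matches, on either strand, to the E-box CANNTG, the CCAAT box, the TATA box TATAAA and the GC box GGGCGG. Matches may overlap.
TCF3: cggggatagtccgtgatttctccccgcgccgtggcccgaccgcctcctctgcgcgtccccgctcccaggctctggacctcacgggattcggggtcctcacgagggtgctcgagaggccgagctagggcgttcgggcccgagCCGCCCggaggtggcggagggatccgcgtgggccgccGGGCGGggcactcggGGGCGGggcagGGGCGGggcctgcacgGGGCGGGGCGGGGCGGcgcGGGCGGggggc
ID1: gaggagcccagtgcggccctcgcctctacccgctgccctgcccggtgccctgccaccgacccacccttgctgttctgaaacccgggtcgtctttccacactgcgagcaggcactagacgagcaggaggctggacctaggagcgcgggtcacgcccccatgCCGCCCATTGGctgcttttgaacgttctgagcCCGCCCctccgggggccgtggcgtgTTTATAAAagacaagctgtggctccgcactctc
TCF3 had 8 GC boxes and none of the other motifs in this window. ID1 had 1 CCAAT box, 2 overlapping TATAAA matches (one on each strand) and 2 GC boxes. Neither window held an E-box. ID2 and ID3 were searched the same way: the ID2 window held 1 E-box, 3 CCAAT boxes and 2 GC boxes, and the ID3 window held none of these motifs. Of these 250 bases, 229 for ID2 and all for ID3 lay in exons of GENCODE v29 (6 for ID1, 0 for TCF3). Of 35116 promoters of this length in the RefSeq table, 61.82% held an E-box, 32.01% a CCAAT box, 10.72% a TATAAA match and 42.64% a GC box.

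The libraries differed in total composition, which bears on every change below. The sum of FPKM lay between 397477 and 467844 per library, and 10092 to 11021 genes reached an FPKM of 1. The absolute depth is unknown. Relative to the first day 0 library of its line, depth read from the small values was 0.54 to 0.73 in the treated TMD8 libraries and 0.77 to 0.91 in the treated OCI-Ly7 libraries. The second day 0 library stood at 1.18 in TMD8 and 1.3 in OCI-Ly7, so libraries of day 0 differed as well. The 45S pre-ribosomal RNA row (RNA45S5) stood at 5222 and 7950 FPKM at day 0 in TMD8 and between 17581 and 20452 at days 3 and 6. In OCI-Ly7 it stood at 11163 and 10374 at day 0 and between 14278 and 20542 later. Over all tested genes the log2 change had a median of -0.27 (TMD8, day 3), -0.31 (TMD8, day 6), -0.12 (OCI-Ly7, day 3) and -0.13 (OCI-Ly7, day 6), and its part in the changes below was not tested beyond a second scaling. Most changes are therefore printed on the deposited FPKM ("as given") and again after a second scaling ("after scaling"). That divided each library by the median of its gene-wise ratios to the line's geometric mean, which sets changes relative to that common shift. A change printed once is as given unless the scaling is named. All changes are on the scale of log2(FPKM + 1), which understates those of low genes. In bulk RNA, fewer cells that express a gene and less of its RNA per cell cannot be told apart. The targeted gene PRMT5 differed from day 0 by -0.58 at day 3 and -0.26 at day 6 in TMD8 (adjusted p = 0.0212 and 0.0262, limma). After scaling these were -0.28 and 0.10 (adjusted p = 0.147 and 0.201, limma), at percentiles 4.2 and 62.8 of the changes of all tested genes. The transcript in TMD8 thus gives no check of the label that passed beyond the common shift. In OCI-Ly7 the log2 differences of PRMT5 were -0.45 and -1.04 (adjusted p = 0.618 and 0.0345; -0.32 and -0.89 after scaling); the day 6 call was lost without the first or the second library of day 0 or of day 6 (adjusted p up to 0.242). PRMT5 protein was not measured. Of 6 B cell markers, 5 had a mean FPKM of at least 1 in TMD8 and 6 in OCI-Ly7, and of 6 plasma cell markers 5 did in each line. The summed B cell markers of TMD8 ran from 641 to 654 FPKM at day 0, from 502 to 532 at day 3 and from 472 to 495 at day 6, and those of OCI-Ly7 from 1029 to 1246, from 755 to 837 and from 978 to 1019. The plasma cell sums were 61.7 to 62.0, 51.9 to 53.5 and 40.9 to 44.5 FPKM in TMD8 and 416 to 442, 313 to 370 and 358 to 369 in OCI-Ly7. Of 10 T and NK cell markers, 0 in TMD8 and 1 in OCI-Ly7 reached a mean of 1 (8 and 6 were at 0 in every library), with sums of 0.453 to 0.915 and 2.06 to 3.01 FPKM. None of 8 myeloid markers did (sums up to 0.383). Of 5 plasmacytoid dendritic cell markers, 1 did in TMD8 (sums up to 2.46) and 0 in OCI-Ly7, and of 9 stromal and epithelial markers 0 in TMD8 (sums up to 2.50) and 3 in OCI-Ly7 (sums of 12.05 to 14.2). The defining T cell genes CD3D, CD3E and CD3G and the myeloid genes LYZ and MPO were listed at 0 in all 12 libraries. The part of these markers in the results was not tested.

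Before induction the 2 lines held opposite balances of the transcripts of the 2 groups, whose proteins were not measured. The levels were set side by side across 2 tables that the authors normalised per library, so they were not tested. FPKM is per transcript length, so the levels of the 6 genes can be ranked within a library. In TMD8 at day 0 TCF3 was highest, at 68.7 ± 3.3 FPKM (SD, n = 2), followed by ID2 at 36.0 ± 2.6, TCF12 at 22.3 ± 0.64 and TCF4 at 17.3 ± 6.9, with ID1 at 3.77 ± 0.28 and ID3 at 2.07 ± 0.18. TCF12 and TCF4 did not differ beyond the spread of TCF4. In OCI-Ly7 at day 0 ID2 was highest, at 138 ± 7.5 FPKM, followed by TCF3 at 41.9 ± 1.8, ID3 at 26.0 ± 0.095, TCF12 at 13.4 ± 0.71, TCF4 at 7.18 ± 0.40 and ID1 at 2.19 ± 0.17. The 3 E proteins together came to 106 and 110 FPKM in the day 0 libraries of TMD8 and to 64.0 and 61.0 in those of OCI-Ly7. The 3 ID genes came to 43.4 and 40.3 FPKM in TMD8 and to 171 and 161 in OCI-Ly7. ID transcripts were thus the smaller group in TMD8, at 0.408 and 0.365 times the E protein sum, and the larger group in OCI-Ly7, at 2.68 and 2.64 times.

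**Figure D1:**
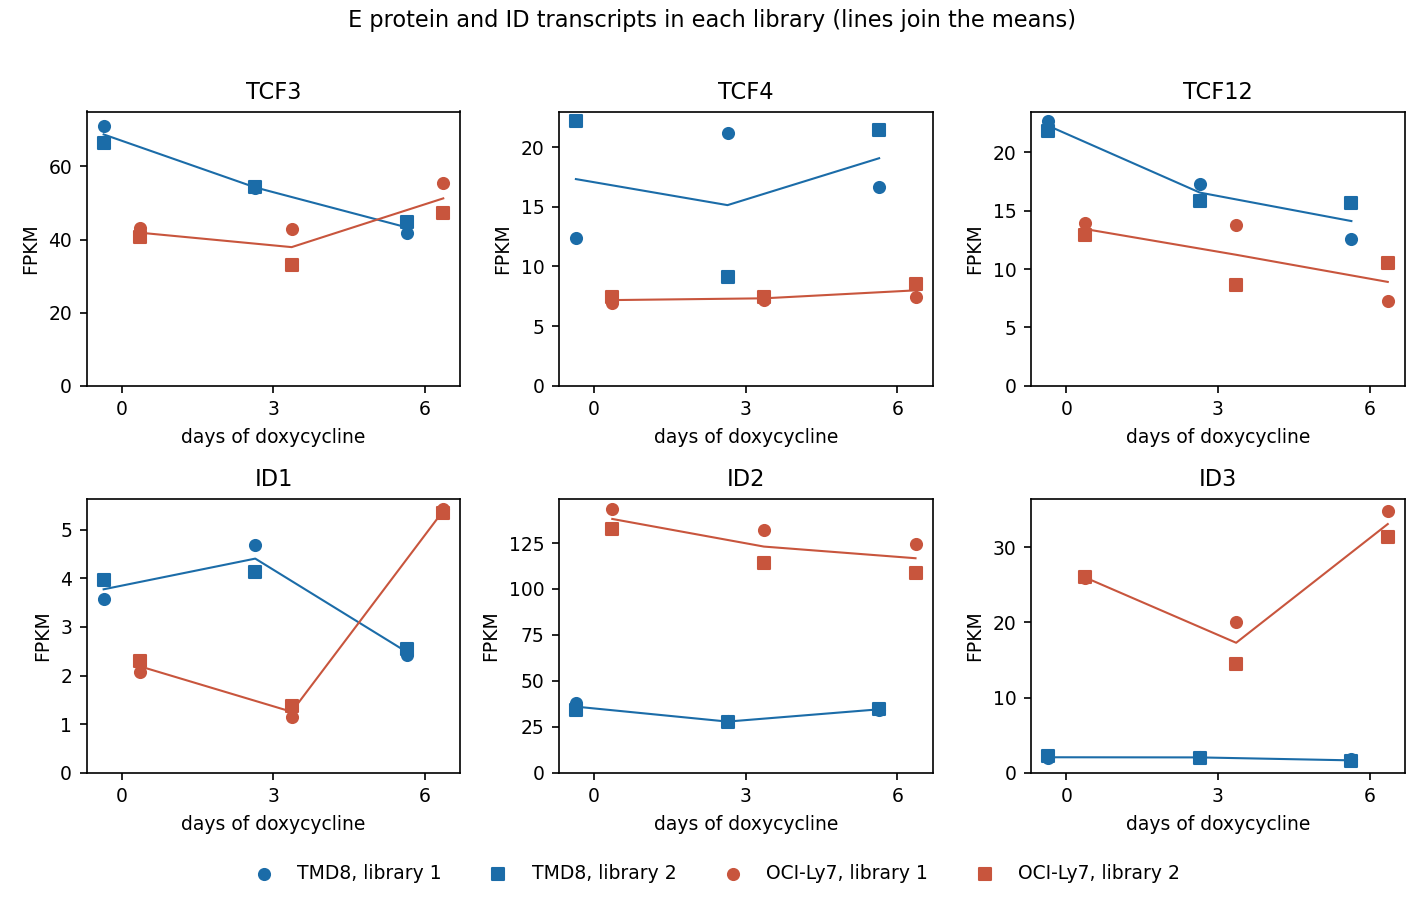
FPKM of each gene (vertical axis, from 0) at 0, 3 and 6 days of doxycycline (horizontal axis) in TMD8 (blue) and OCI-Ly7 (red), with circles and squares for the 2 libraries of a day and lines through the means. TCF3 and TCF12 step down in TMD8, ID1 and ID3 dip at day 3 and peak at day 6 in OCI-Ly7, and the 2 TMD8 libraries of TCF4 lie far apart at days 0 and 3.

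TCF3, a main E protein of germinal centre B cells, fell stepwise in TMD8. It stood at 71.1 and 66.4 FPKM on day 0, 54.2 and 54.3 on day 3, and 41.8 and 44.8 on day 6. No library of one day overlapped those of another. Such separation was common in TMD8: as given, 83.8% of all tested genes had both day 3 libraries below both of day 0 and 3.41% above; for day 6 against day 0 these shares were 73.4% and 7.88%, and for day 6 against day 3 they were 35.2% and 22.8%. TCF3 changed by -0.34 (SE 0.068) at day 3 (adjusted p = 0.0226, limma) and by -0.65 (SE 0.068) at day 6 (adjusted p = 0.00209). Relative to the common shift little of the day 3 change was left (-0.03 after scaling, adjusted p = 0.807), whereas at day 6 TCF3 still fell (-0.30, adjusted p = 0.0134), and the adjusted p lay between 0.00147 and 0.0134 over the 8 alternatives with all libraries. The day 3 call as given was lost without any 1 of the 4 libraries of day 0 and day 3 (adjusted p up to 0.143). As given, the day 6 call held without any 1 of the 6 TMD8 libraries (-0.70 to -0.60). After scaling it was lost without either day 0 library (adjusted p up to 0.0969). From day 3 to day 6 it changed by -0.32 (adjusted p = 0.0451; -0.26 after scaling, adjusted p = 0.0309), a step that did not pass without any 1 library (adjusted p up to 0.177).

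In OCI-Ly7 TCF3 did not follow that course. It stood at 43.1 and 40.6 FPKM on day 0, 42.8 and 33.0 on day 3, and 55.4 and 47.1 on day 6. The day 6 libraries lay above all others, and the day 3 libraries were spread across the day 0 range and below it. In OCI-Ly7 20.7% of all tested genes had both day 6 libraries above both of day 0 and 48.6% below; at day 3 the shares were 4.58% and 41.1%, and from day 3 to day 6 they were 25.6% and 30.5%. The change at day 6 was 0.28 (SE 0.15) and did not pass (adjusted p = 0.252, limma; 0.43 after scaling, adjusted p = 0.0525). The difference between the lines itself passed: the day 6 change of TCF3 was higher in OCI-Ly7 than in TMD8 by 0.94 (SE 0.17) on the log2 scale (adjusted p = 0.00809), and by 0.73 after scaling (adjusted p = 0.00316). It passed without any 1 of the 12 libraries under both scalings (0.64 to 1.05).

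TCF12, which pairs with TCF3 in lymphoid cells, fell in TMD8 with TCF3. It stood at 22.7 and 21.8 FPKM on day 0, 17.3 and 15.8 on day 3, and 12.6 and 15.6 on day 6. The libraries of the 3 days did not overlap, although day 3 and day 6 nearly touched. TCF12 changed by -0.41 (SE 0.11) at day 3 (adjusted p = 0.0352, limma; -0.12 after scaling, adjusted p = 0.59) and by -0.63 (SE 0.11) at day 6 (adjusted p = 0.00617; -0.29 after scaling, adjusted p = 0.0486). The day 6 call passed in all 8 alternatives with all libraries (adjusted p from 0.00512 to 0.0486). The day 3 call was lost without any 1 of the 4 libraries of day 0 and day 3 (adjusted p up to 0.169). After scaling the day 6 call was lost in 5 of the 6 fits without 1 library, the exception being that without the second day 6 library (adjusted p up to 0.184). In OCI-Ly7 TCF12 stood at 13.9 and 12.9 FPKM on day 0, 13.8 and 8.67 on day 3, and 7.30 and 10.5 on day 6. Both day 6 libraries lay below both day 0 libraries, but the 2 libraries of each treated day were far apart, and the change of -0.56 (SE 0.25) did not pass (adjusted p = 0.169; -0.42 after scaling). Between the lines the day 6 changes of TCF12 differed by 0.07 with an SE of 0.30 (adjusted p = 0.88; -0.14 after scaling), an error several times the value.

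TCF4, the E protein of plasmacytoid dendritic cells and of many activated B cell-like lymphomas, gave no change that passed in either line. In TMD8 it stood at 12.4 and 22.2 FPKM on day 0, 21.2 and 9.12 on day 3, and 16.7 and 21.5 on day 6. Libraries of the same day differed more than the days did, and the SE of its change in TMD8 was 0.41, against 0.068 for TCF3. The 2 day 0 libraries and the 2 day 3 libraries each held one high and one low value, while TCF3 and TCF12 in the same libraries did not. In OCI-Ly7 TCF4 stood between 6.90 and 8.56 FPKM in all 6 libraries, and the days overlapped as given. After scaling both day 6 libraries lay above both of day 0, and those of day 3 barely did (6.95 against 6.94 FPKM). The share of all genes separated in this way after scaling is not given here. The change at day 6 was 0.14 (adjusted p = 0.403, limma) and 0.27 after scaling (adjusted p = 0.161). TCF4 and TCF3 also serve as older names of TCF7L2 and TCF7L1, factors of the Wnt pathway; these had rows of their own, at no more than 0.596 and 0.399 FPKM in any library.

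Among the ID genes, ID1 gave the largest change. ID1 and ID3 are early targets of BMP signalling through SMAD proteins, and ID1 is normally low in mature B cells. In OCI-Ly7 ID1 stood at 2.07 and 2.31 FPKM on day 0, 1.14 and 1.37 on day 3, and 5.42 and 5.35 on day 6. The day 3 libraries were the lowest and the day 6 libraries the highest, with no overlap, and the mean at day 6 was 2.46 times that of day 0 and 4.29 times that of day 3. ID1 rose by 1.00 (SE 0.11) from day 0 to day 6 (adjusted p = 0.0345, limma; 1.12 after scaling, adjusted p = 0.0235) and by 1.50 (SE 0.11) from day 3 to day 6 (adjusted p = 0.0133; 1.53 after scaling, adjusted p = 0.0221). Its day 6 change was above those of 99.2% of the tested genes. The day 3 difference (-0.50) did not pass (adjusted p = 0.618). The rise over day 0 passed in 6 of the 7 alternatives that tested ID1 (adjusted p from 0.0235 to 0.053). It did not pass when any 1 of the 4 libraries of day 0 and day 6 was left out (adjusted p up to 0.214), with a change of 0.95 to 1.06 over all such fits. The rise over day 3 was lost without either library of day 6 (adjusted p up to 0.0593), and after scaling also without either library of day 0.

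In TMD8 the day 6 change of ID1 had the opposite sign. ID1 stood at 3.57 and 3.97 FPKM on day 0, 4.68 and 4.13 on day 3, and 2.42 and 2.55 on day 6. The day 3 libraries were above and the day 6 libraries below those of day 0. ID1 fell by 0.45 (SE 0.10) from day 0 to day 6 (adjusted p = 0.0118, limma), but after scaling the change of -0.18 did not pass (adjusted p = 0.192), and as given it was lost without either library of day 0 (adjusted p up to 0.0708). From day 3 to day 6 it fell by 0.63 (adjusted p = 0.0256; -0.60 after scaling, adjusted p = 0.0245), a step that did not pass without any 1 of the 6 libraries (adjusted p up to 0.129). At day 3 the change was 0.18 (adjusted p = 0.165; 0.42 after scaling, adjusted p = 0.192). The day 6 change of ID1 was higher in OCI-Ly7 than in TMD8 by 1.46 (SE 0.14; adjusted p = 0.000937), and by 1.29 after scaling (adjusted p = 0.000888), and passed without any 1 of the 12 libraries (1.21 to 1.52 over both scalings). At day 3 the difference had the other sign, at -0.68, and did not pass (adjusted p = 0.227).

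ID3, the ID gene recurrently mutated in Burkitt lymphoma, had a course like that of ID1 in OCI-Ly7. It stood at 25.9 and 26.1 FPKM on day 0, 20.1 and 14.5 on day 3, and 34.8 and 31.3 on day 6. The 3 days did not overlap, with day 3 lowest and day 6 highest. From day 3 to day 6 the log2 difference of ID3 was 0.91 (SE 0.16), which did not pass as given (adjusted p = 0.087, limma) and passed after scaling (0.94, adjusted p = 0.0332). Against day 0 the change was 0.33 (adjusted p = 0.209) and 0.48 after scaling (adjusted p = 0.0495). After scaling the rise over day 0 was lost without any 1 of the 6 libraries (adjusted p up to 0.214), and the rise over day 3 in 5 of 6 fits, the exception being that without the first day 3 library. In TMD8 ID3 was low, at 1.94 and 2.19 FPKM on day 0, 2.09 and 2.01 on day 3, and 1.78 and 1.54 on day 6. Its change there was -0.21 at day 6 (adjusted p = 0.129; 0.03 after scaling). The day 6 changes of ID3 in the 2 lines differed by 0.54 (SE 0.19), which did not pass (adjusted p = 0.0711; 0.45 after scaling, adjusted p = 0.057) and passed in 2 of 7 alternatives, with an equal FPKM sum and with the compared days alone (adjusted p from 0.0294 to 0.0859).

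ID2 was the main ID transcript in every library, with 80.6% to 89.5% of the ID sum in TMD8 and 74.8% to 87.8% in OCI-Ly7. ID2 restrains E proteins in lymphoid precursors and is known for its role in innate lymphoid cells. In TMD8 it stood at 37.8 and 34.2 FPKM on day 0, 28.1 and 27.6 on day 3, and 34.3 and 34.8 on day 6. The day 3 libraries were the lowest, and those of day 6 lay within the day 0 range. ID2 fell by 0.36 (SE 0.072) at day 3 (adjusted p = 0.0225, limma; -0.06 after scaling, adjusted p = 0.703), a call lost without any 1 of the 4 libraries of day 0 and day 3 (adjusted p up to 0.141). From day 3 to day 6 the difference was 0.30 (adjusted p = 0.0575; 0.36 after scaling, adjusted p = 0.0251), and the call after scaling held in 1 of 6 fits without 1 library. At day 6 the difference from day 0 was -0.06 (adjusted p = 0.525), and relative to the common shift it was higher (0.30 after scaling, adjusted p = 0.0193), the one of 8 alternatives in which it passed (adjusted p from 0.0193 to 0.829). This rise after scaling was lost without either day 0 library and without the first of day 6 (adjusted p up to 0.112). In OCI-Ly7 ID2 stood at 143 and 133 FPKM on day 0, 132 and 114 on day 3, and 124 and 109 on day 6. Both day 6 libraries lay below those of day 0 as given and overlapped them after scaling (-0.24, adjusted p = 0.214; -0.09 after scaling). The day 6 change of ID2 was lower in OCI-Ly7 than in TMD8 after scaling (-0.39, adjusted p = 0.0166) and did not pass as given (-0.19, adjusted p = 0.338); the call after scaling was lost without the second day 0 or first day 6 library of TMD8 or the first day 0 library of OCI-Ly7 (adjusted p up to 0.061).

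**Figure D2:**
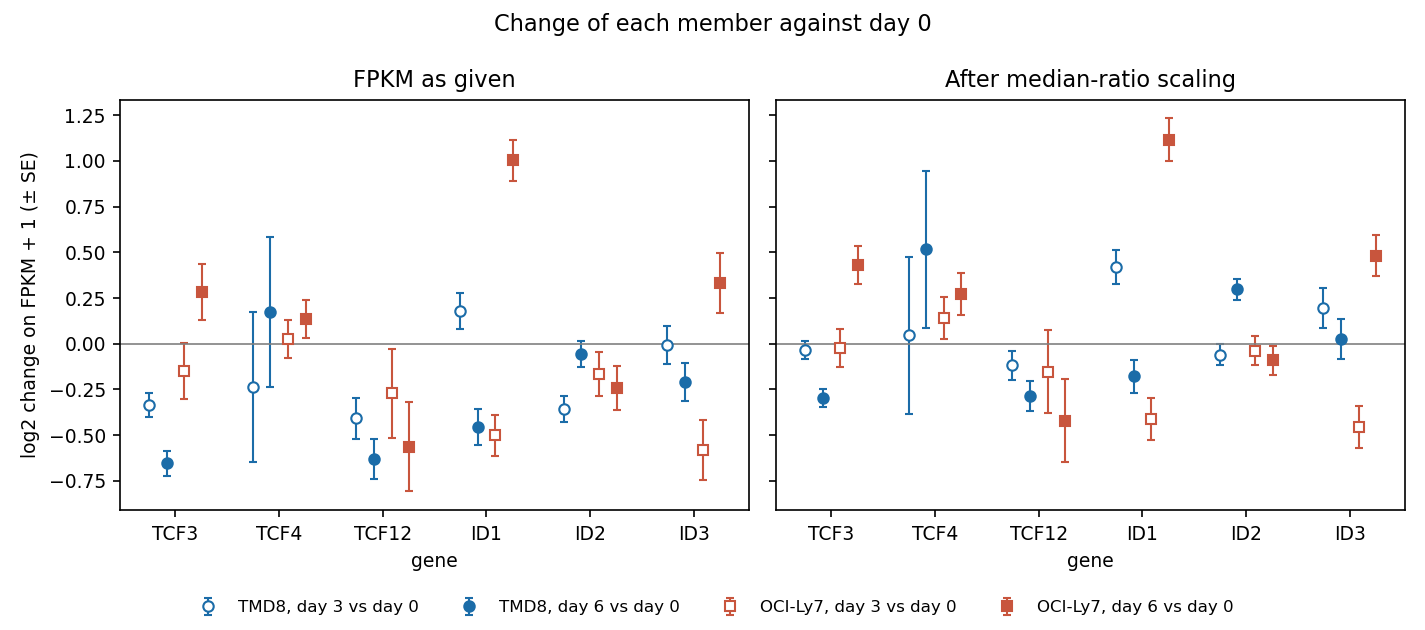
Log2 change of each gene against day 0 (vertical axis, on FPKM + 1, bars are ± 1 SE of the limma fit) at day 3 (open) and day 6 (filled) in TMD8 (blue circles) and OCI-Ly7 (red squares), on FPKM as given (left) and after median-ratio scaling (right). ID1 at day 6 in OCI-Ly7 stands at 1.00 and 1.12, and TCF3 at day 6 in TMD8 at -0.65 and -0.30.

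Read against all genes, the counts of members differed little from the background in some comparisons. At day 3 in TMD8, 3 of 6 members passed, all lower (TCF3, TCF12 and ID2), where 41.5% of all tested genes were called lower; after scaling 0 members and 0.22% of genes passed, and 1 member (ID1) and 1321 genes had a p under 0.05 before adjustment (limma). At day 6 in TMD8, 3 of 6 passed, all lower (TCF3, TCF12 and ID1), against 51.7% of all genes. After scaling the count was again 3: TCF3 and TCF12 were lower, where 13.5% of genes were, and ID2 was higher, where 15.4% of genes were. Between days 3 and 6 in TMD8, TCF3 and ID1 were lower against 4.47% of genes; after scaling ID2 was also higher (5.1% lower and 6.56% higher among all genes). At day 3 in OCI-Ly7, 0 of 6 members passed and 0.145% of genes did, while 2 members (ID1 and ID3) and 755 genes had a p under 0.05 before adjustment. At day 6 in OCI-Ly7, ID1 passed as higher against 1.98% of genes, and ID1 and ID3 after scaling against 6.71%. Between days 3 and 6 in OCI-Ly7, ID1 passed against 0.0999% of genes, and ID1 and ID3 after scaling against 4.23%. For the difference between the lines, 0 members passed at day 3 (0.103% of genes), with 2 members and 1026 genes at an unadjusted p under 0.05. At day 6 TCF3 and ID1 passed, higher in OCI-Ly7, against 18.4% of genes. After scaling these 2 were still higher, as were 14.1% of genes, and ID2 was lower, as were 19% of genes.

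The ratio of the ID sum to the E protein sum does not depend on the scaling between libraries. In TMD8 it was 0.408 and 0.365 on day 0, 0.377 and 0.426 on day 3, and 0.542 and 0.475 on day 6. The day 6 libraries lay above the other 4, with an E protein sum of 71.0 and 81.9 FPKM and an ID sum of 38.5 and 38.9. In OCI-Ly7 the ratio was 2.68 and 2.64 on day 0, 2.40 and 2.64 on day 3, and 2.35 and 2.20 on day 6. There the day 6 libraries lay below the other 4, with an E protein sum of 70.1 and 66.2 FPKM and an ID sum of 165 and 146. The ratio is therefore higher at day 6 in the line where it began low and lower in the line where it began high; it is a score over the members and was not tested.

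The makeup within each group differed between the days in both lines; these shares were not tested. In OCI-Ly7 ID3 made up 15.1% and 16.2% of the ID sum on day 0, 13.1% and 11.1% on day 3, and 21.1% and 21.5% on day 6. ID1 made up 1.21% and 1.43%, then 0.744% and 1.05%, then 3.29% and 3.67%. TCF3 made up 67.4% and 66.6% of the E protein sum at day 0 and 79.0% and 71.2% at day 6, and TCF12 21.8% and 21.2%, then 10.4% and 15.9%. In all 3 ID shares the day 6 libraries lay outside the range of the other 4. In TMD8 the share of ID1 in the ID sum was 8.24% and 9.85% on day 0, 13.4% and 12.2% on day 3, and 6.29% and 6.54% on day 6, with no overlap. That of ID2 was 87.3% and 84.7%, then 80.6% and 81.8%, then 89.1% and 89.5%, lowest on day 3 and highest on day 6. ID3 made up 3.95% to 5.99%, highest on day 3, with days 0 and 6 overlapping. TCF4 made up 11.7% and 20.1% of the E protein sum of TMD8 on day 0, 22.8% and 11.5% on day 3, and 23.5% and 26.2% on day 6, where both libraries lay above the other 4. TCF3 made up 66.9% and 60.1%, then 58.5% and 68.5%, then 58.8% and 54.7%, so that day 6 lay below day 0 and overlapped day 3.

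**Figure D3:**
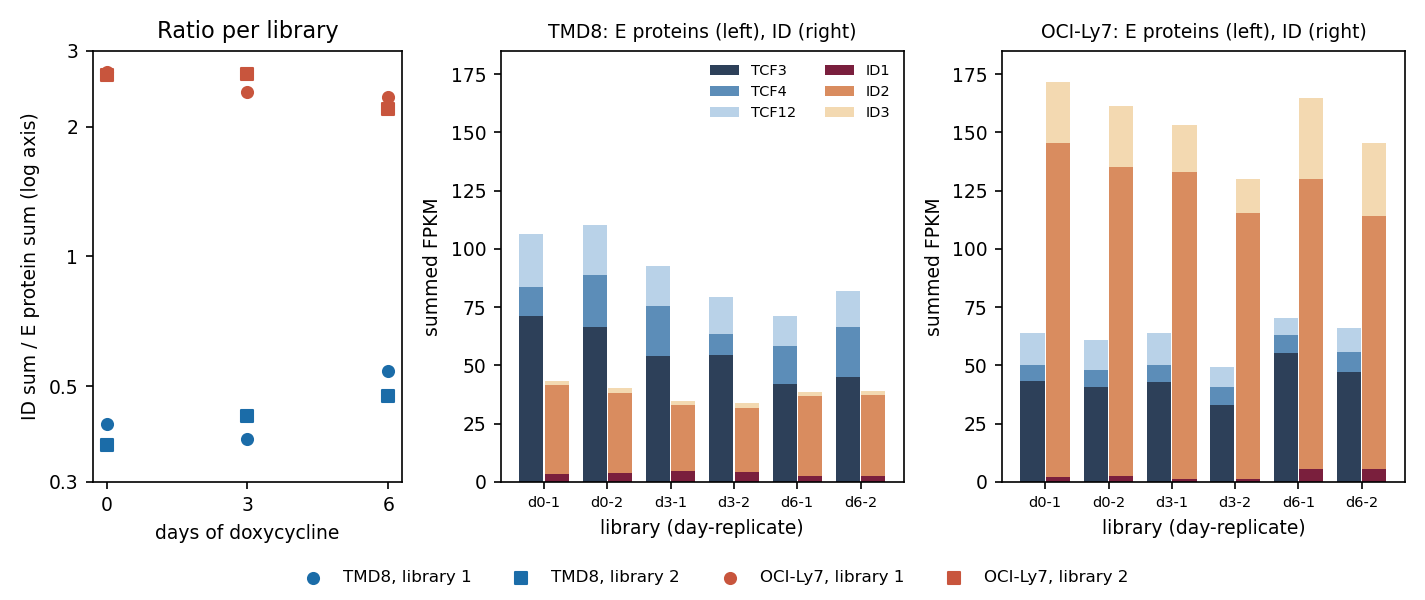
Left, the ratio of the summed ID FPKM to the summed E protein FPKM in each library (log axis) by days of doxycycline, in TMD8 (blue) and OCI-Ly7 (red). Middle and right, the summed FPKM of the E proteins (left bar) and the ID genes (right bar) in each library of TMD8 and OCI-Ly7, stacked by gene; ID transcripts exceed E proteins in OCI-Ly7 (ratios of 2.20 to 2.68) and not in TMD8 (0.365 to 0.542).

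Over the 12 libraries, on scaled values with each line's mean removed, ID1 and ID3 had the most alike courses among the members (Pearson r = 0.895), followed by TCF3 with ID1 (0.808) and TCF3 with ID3 (0.758). The lowest r among the members was that of TCF3 with ID2 (-0.507). Their day 3 changes after scaling nevertheless had the same sign, at -0.03 and -0.06 in TMD8 and -0.02 and -0.04 in OCI-Ly7. These values describe 12 libraries of 6 groups that share days and lines. Among the 9688 genes tested in both lines, those most alike were ATG2A (r = 0.99), LTBP4 (0.985) and PLEC (0.98) for TCF3, FAM83H (0.957) and CHST12 (0.949) for ID1, and PACS2 (0.958), FAM83H (0.949) and PLEKHH3 (0.948) for ID3. FAM83H thus stood near both ID1 and ID3. For ID2 they were CSRP1 (0.966), COPRS (0.955) and NUDC (0.95), for TCF4 ARL2-SNX15 (0.91), MALT1 (0.906) and MRPL45 (0.852), and for TCF12 TRIM65 (0.917), PAXIP1OS (0.886) and CAPZB (0.885).

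Of 31 genes for dimer partners and cofactors of E proteins, 16 could be tested in TMD8 and 17 in OCI-Ly7. The fourth ID gene, ID4, and the partner TAL1 were listed at 0 in all 12 libraries. In TMD8 at day 6, 0 of the 16 were higher and 11 lower, where 3.89% of all tested genes were higher and 51.7% lower, with a median log2 change of -0.47 against -0.31 over all genes. After scaling 1 was higher and 3 lower, where 15.4% and 13.5% of all genes were (median -0.21 against 0.00). The 3 were CBFA2T3, an ETO family corepressor (10.0 ± 0.86 FPKM at day 0 and 5.02 ± 0.17 at day 6, SD, n = 2; -0.87, adjusted p = 0.00199, limma), BHLHE41, an E-box repressor (24.3 ± 0.66 to 14.0 ± 0.46 FPKM; -0.75), and SSBP3, an LDB1 partner (-0.58). As given all 3 passed without any 1 library of TMD8. After scaling CBFA2T3 and BHLHE41 passed in 4 of 6 such fits and SSBP3 in 0 (adjusted p up to 0.213). KAT2A, a histone acetyltransferase, was the higher one after scaling (0.29, against -0.05 as given) and is named for being alone. The changes of CBFA2T3, BHLHE41 and SSBP3 after scaling were -0.55, -0.40 and -0.25. In OCI-Ly7 at day 6, 1 of 17 was higher and 1 lower under both scalings. Among all genes 1.98% were higher and 9.39% lower there as given, and 6.71% and 8.05% after scaling. BHLHE40, another E-box repressor, rose from 3.04 ± 0.59 to 5.60 ± 0.76 FPKM (0.71, adjusted p = 0.0422), and LDB1, which bridges E protein complexes, fell from 15.5 ± 1.3 to 9.99 ± 0.50 (-0.59, adjusted p = 0.0487). Neither call held in the fits without 1 library of day 0 or day 6 (adjusted p up to 0.253 and 0.284), and BHLHE40 was also lost without either day 3 library. With all libraries BHLHE40 passed in 4 of 7 alternatives (adjusted p from 0.0324 to 0.0696) and LDB1 in 4 of 8 (0.0356 to 0.0744). As given, 18.4% of all tested genes passed the difference between the lines at day 6 as higher in OCI-Ly7. LDB1 (-0.23, adjusted p = 0.469, limma) and SSBP3 (0.36, adjusted p = 0.0633) did not pass it. The difference between the lines passed for BHLHE40 (0.92, adjusted p = 0.00997, limma), BHLHE41 (1.06, adjusted p = 0.00773) and CBFA2T3 (0.78, adjusted p = 0.0179), each higher in OCI-Ly7 (0.73, 0.84 and 0.59 after scaling). It held without any 1 of the 12 libraries for the first pair, and for CBFA2T3 it was lost without the first day 0 library of either line (adjusted p up to 0.0724).

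Of 30 B lineage genes known as E protein targets, PAX5, the factor of B cell identity, moved in opposite directions in the 2 lines. The level of PAX5 in TMD8 went from 10.4 ± 0.45 FPKM (SD, n = 2) at day 0 to 4.90 ± 0.64 at day 6 and fell in the test (-0.96, adjusted p = 0.00232, limma; -0.64 after scaling). In OCI-Ly7 it rose from 7.46 ± 0.84 to 11.1 ± 0.22 (0.52, adjusted p = 0.0438; 0.66 after scaling). The difference between the lines was 1.48 (SE 0.15; adjusted p = 0.00122) and 1.29 after scaling (adjusted p = 0.000568), and passed without any 1 of the 12 libraries. Alone, the rise in OCI-Ly7 passed in 6 of 8 alternatives (adjusted p from 0.0268 to 0.0672) and was lost without any 1 of the 4 libraries of day 0 and day 6 (adjusted p up to 0.276), while the fall in TMD8 as given was not lost without any 1 library (adjusted p up to 0.0221). In TMD8 at day 6, 0 of 20 tested targets were higher and 14 lower, against 3.89% and 51.7% of all genes (median -0.40 against -0.31). After scaling 1 was higher and 6 lower, against 15.4% and 13.5% of all genes (median -0.07 against 0.00). Beside PAX5 these included the cell cycle kinase gene CDK6 (-0.60, and -0.28 after scaling) and IGLL5 (-0.66, and -0.30 after scaling). IGLL5 is an immunoglobulin lambda-like gene whose reads can be shared with the lambda locus. In fits without 1 library after scaling, PAX5 passed in 4 of 6, CDK6 in 1 and IGLL5 in 0 (adjusted p up to 0.204); as given these 3 passed in each. The higher one after scaling, CCND3, a cyclin (0.55, against 0.21 as given), is named for being alone. At day 6 in OCI-Ly7, 2 of 22 were higher (PAX5 and VPREB3) and 1 lower (CDK6, -0.41), against 1.98% and 9.39% of all genes, with a median of -0.09 against -0.13. After scaling 4 were higher (PAX5, VPREB3 and EBF1 among them) and 0 lower, against 6.71% and 8.05% of all genes, with a median of 0.06 against 0.01. VPREB3, a surrogate light chain gene, rose from 377 ± 5.7 to 485 ± 12 FPKM (0.36, adjusted p = 0.0461), a call that no fit without 1 library kept (adjusted p up to 0.29) and that held in 4 of 8 alternatives (adjusted p from 0.0268 to 0.0651). VPREB1, IGLL1 and DNTT, which mark precursor B cells, were listed at 0 in all 12 libraries.

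Of 32 genes for BMP and TGF-beta ligands, receptors, SMADs and other regulators upstream of the ID genes, 17 could be tested in each line. The ligands BMP2, BMP4 and BMP7 were listed at 0 in all 12 libraries. In OCI-Ly7 at day 6 the 17 had a median log2 change of -0.24, against -0.13 over all genes (-0.09 against 0.01 after scaling). SMAD5, which carries the BMP signal, was at 11.1 ± 0.24 FPKM (SD, n = 2) at day 0 and 7.94 ± 0.51 at day 6 there. It was the 1 gene of 17 called lower (-0.44, adjusted p = 0.0487, limma, and -0.30 after scaling), where 9.39% of all genes were. The call passed in 4 of 8 alternatives (adjusted p from 0.0386 to 0.0714) and was lost without any 1 of the 4 libraries of day 0 and day 6 (adjusted p up to 0.284). In TMD8 at day 6, 12 of 17 were lower and 0 higher, against 51.7% and 3.89% of all genes (median -0.37 against -0.31). After scaling 1 was lower and 1 higher, against 13.5% and 15.4% of all genes (median -0.08 against 0.00). The lower one was EGR1, an immediate early factor known to act on ID3, with 2.07 ± 0.82 FPKM at day 0 and 0.580 ± 0.25 at day 6 (-0.94, adjusted p = 0.0131; lost without the first library of either day, adjusted p up to 0.0633, and after scaling without any 1 of 6), and the higher one BAMBI, a decoy receptor (0.40 after scaling), named for being alone. The differences between the lines did not pass for SMAD5 (0.11, adjusted p = 0.573) or EGR1 (0.56, adjusted p = 0.128).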

How the data were processed

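RNA sequencing of 12 libraries gave the expression values, 2 for each of 3 days in both lines. The submitters' processing notes name HISAT, StringTie and hg19; versions and strand setting are not given in the sources used here. As deposited, the values are the authors' FPKM, 1 table per line, normalised library by library, and they hold no counts, so the absolute depth is unknown. TCF4 and ID2 overlap antisense genes in GENCODE v29, which is of another build, and reads from both strands may be mixed there. The 250 bases before each start site were taken from RefSeq (GRCh38.p14).

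The members and gene lists were chosen with earlier results of these data known. Within each line limma 3.58.1 (R 4.3.3) was fitted to log2(FPKM + 1) over the 3 days together, with a mean-dependent trend, for genes whose mean reached 1 FPKM: 10456 in TMD8, 11016 in OCI-Ly7 and 9688 in both, used for the difference between the lines. The Benjamini-Hochberg adjustment ran over every gene tested, at a threshold of 0.05. The procedure was tested on simulated data without a shift common to all genes, so this test does not cover such a shift.

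Alternatives changed the scaling (median-ratio, equal FPKM sum), the pseudocount (0.1), the filter (none, or a mean of 5), the trend, the days in the fit and the replicate block, or dropped 1 library at a time. Dropping libraries after median-ratio scaling was added after seeing the data. A library left alone in its group was taken to vary as other groups do. Calls over all genes could fall in such a fit as well, so a call lost there does not set a gene apart from the others.

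Named genes were the 6 members, PRMT5, up to 4 genes per list and line with the largest day 6 change among those that passed under both scalings with separate libraries, and the 3 genes most correlated with each member. Genes outside this rule were chosen after their values were seen. Some genes that the rule named are not reported here.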

Additional observations from a re-analysis of the deposited data

Results flagged for a closer look

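For TCF3 and ID1 the change from day 0 to day 6 differed between the lines by a test of the difference itself. It was higher in OCI-Ly7 than in TMD8 by 0.94 on the log2 scale for TCF3 (adjusted p = 0.00809, limma) and by 1.46 for ID1 (adjusted p = 0.000937). Of all genes tested in both lines, 18.4% passed this test as given in the same direction. TCF3 and ID1 had both day 6 libraries above both day 0 libraries in OCI-Ly7 and below them in TMD8. Such separation was found upward for 20.7% of all tested genes in OCI-Ly7 and downward for 73.4% in TMD8. The differences of TCF3 and ID1 also passed after median-ratio scaling (0.73 and 1.29), as did those of 14.1% of genes in the same direction. The 45S pre-ribosomal RNA row and the relative depth moved with the treatment in both lines, and their part in these differences was not tested.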

How the results depend on the processing

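Of the members' calls as given, the falls of TCF3 and TCF12 in TMD8 at day 6, the rise of ID1 from day 3 to day 6 in OCI-Ly7 and the differences between the lines for TCF3 and ID1 at day 6 passed in every alternative with all libraries that tested the gene. Other counts of members past the threshold moved. In TMD8 at day 3 the count was 3 as given and 0 after median-ratio scaling, 0 with an equal FPKM sum and 0 with the replicate block. Over all 10456 genes tested the calls there were 4492 as given and 23, 36 and 13 in these alternatives. From day 3 to day 6 in TMD8 the count of members was 2, against 0 without the filter, 1 without the trend, 0 with the replicate block and 0 with the compared days alone. The calls over all genes were 820 of 10456, against 359 of 15696, 686, 58 and 200. In OCI-Ly7 at day 6 the count of members was 1, against 2 after median-ratio scaling, 0 without the filter and 0 with a mean FPKM of at least 5, which leaves out ID1. The calls over all genes were 1252 of 11016, against 1626, 41 of 15742 and 1383 of 7296. From day 3 to day 6 in OCI-Ly7 the count of members was 1, against 2 after median-ratio scaling, 2 with an equal sum and 0 with a mean of at least 5. The calls over all genes were 24 of 11016, against 964, 556 and 26 of 7296. For the difference between the lines at day 6 the count of members was 2, against 3 after median-ratio scaling, 3 with an equal sum, 3 with the compared days alone and 1 with a mean of at least 5. The calls over all genes were 2396 of 9688, against 3207, 2640, 2398 and 1391 of 6070. Same-numbered deviations correlated between -0.15 and 0.13 over the pairs of days, so the values gave no sign of pairing by replicate number. With 2 libraries per day this cannot show whether same-numbered libraries were prepared together. The block took the calls over all genes from 4492 to 13 in TMD8 at day 3, from 820 to 58 between days 3 and 6, and from 1252 to 733 in OCI-Ly7 at day 6. Beyond the scaling and the block, the cause of these moves was not tested.

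Directions turned after median-ratio scaling for TCF4 and ID3 in TMD8 at day 3 (0.047 and 0.193), for ID2, ID3 and PRMT5 in TMD8 at day 6 (0.298, 0.028 and 0.096), and for the difference between the lines of TCF12 at day 3 and day 6 (-0.035 and -0.136) and of SMAD5 at day 6 (-0.051). With an equal FPKM sum they turned for ID3 in TMD8 at day 3 (0.129) and ID2 in TMD8 at day 6 (0.023). Median-ratio scaling moved the mean E protein sum at day 0 to 92.53 FPKM in TMD8 and 58.27 in OCI-Ly7, and the mean ID sum to 35.69 and 42.53 in TMD8 at days 0 and 6 and to 155.1 in OCI-Ly7 at day 0.

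Without 1 library, over both scalings, the count of members ran from 0 to 3 in TMD8 at day 3, from 0 to 3 at day 6 and from 0 to 1 between days 3 and 6. In OCI-Ly7 it ran from 0 to 0 at day 3, from 0 to 1 at day 6 and from 0 to 2 between them, and for the difference between the lines from 0 to 0 at day 3 and from 2 to 4 at day 6. Such a fit can leave 1 library in a group, and calls over all genes fell with those of the members in some comparisons. As given, this was so in TMD8 at day 3 without any 1 library of day 0 or day 3. It was also so in TMD8 between days 3 and 6 without any 1 library. Calls lost there were thus not particular to the members. The direction turned in a fit without 1 library for 18 of 48 combinations of member and comparison, 0 of which had passed as given with all libraries. In TMD8 TCF4 ranged from -0.803 to 0.599 at day 3, from -0.221 to 0.945 at day 6 and from -0.154 to 1.022 between them. ID3 ranged from -0.067 to 0.274 and from -0.273 to 0.131 at days 3 and 6, and ID2 from -0.128 to 0.341 at day 6. PRMT5 at day 6 ranged from -0.332 to 0.113 over both scalings. Both its day 6 libraries lay below both of day 0 as given and above them after scaling, so its sign turned with the scaling and not with the library left out. In OCI-Ly7 at day 3 TCF3 ranged from -0.332 to 0.079, TCF4 from -0.023 to 0.234, TCF12 from -0.576 to 0.079 and ID2 from -0.271 to 0.021; from day 3 to day 6 TCF12 ranged from -0.596 to 0.014 and ID2 from -0.178 to 0.028. For the difference between the lines at day 3 TCF3 ranged from -0.091 to 0.367, TCF4 from -0.458 to 0.83, TCF12 from -0.265 to 0.442 and ID2 from -0.038 to 0.292. At day 6 TCF4 ranged from -0.675 to 0.356, TCF12 from -0.394 to 0.302, LDB1 from -0.613 to 0.008, CDK6 from -0.065 to 0.298 and SMAD5 from -0.115 to 0.216. With no counts in the tables, the number of fragments behind low genes such as ID1 and ID3 in TMD8 is not known, and 2 libraries per group limit the precision.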
